A study of Mus musculus with 12 samples.

Results

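4930555G01Rik, Gm3696 and Gm5797 are predicted protein-coding genes of the mouse that carry no functional name, and they were among the largest falls in the striatum of BACHD mice after treatment with an antisense oligonucleotide (ASO) against wig-1. They were picked by their symbol and by the size of that fall, wig-1 ASO against PBS, so their levels on these arrays are given as a description, with no test. The array assigns 5 of its 45281 probes to these 3 genes, out of 19057 gene symbols in all. Of the 5 probes, 3 were well measured, 1 for each gene, where a well measured probe is one that 4 or more of the 12 arrays detected, each at a detection p-value below 0.01. Over the whole array 17188 probes met this limit.

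RNA came from the striatum of 12 BACHD mice aged 5 months, 1 Illumina MouseWG-6 v2 array per mouse. BACHD mice, the controls included, carry a full-length mutant human huntingtin gene under its own regulatory elements and model Huntington's disease, so every group analysed here carries the transgene. By the study's methods, 4 mice received wig-1 ASO, 4 received a negative control ASO of the same chemistry and 4 received PBS, each as a single bolus into the striatum. The GEO labels name the tissue only as brain. They title the PBS arrays "PBS (no treatment)", so the PBS injection is taken from the methods and not from the labels. Of the alternative times after injection that the study names for these mice, the one used for the arrays is not given in the sources used here.

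Wig-1, whose gene symbol is Zmat3, is an RNA-binding zinc-finger protein and a target of p53. Takusan is a large gene family of rodents that arose from part of Dlg5, a relative of the postsynaptic scaffold gene Dlg4. An alpha-takusan protein of the mouse binds PSD-95, the product of Dlg4, gathers it into clusters in neurons and raises the number of AMPA-type glutamate receptors at the cell surface. The family is named for its many copies, and a probe made for one copy may also bind RNA of others.

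The start regions of the genes are shown because they show which genes have like starts, and so that they can be set beside that of the gene annotated takusan. They do not decide whether a gene belongs to the takusan family, since its proteins were not compared here. Each window runs from 250 bases before to 50 bases after the annotated start, taken from RefSeq on GRCm38.p6, and is written 5′ to 3′ on the strand of the gene. In the pair 4930555G01Rik, at chr14:5050379-5050678 on the plus strand, and Gm5797, at chr14:7332346-7332645 on the minus strand, capitals mark bases that differ or have no partner within the aligned stretch.
4930555G01Rik: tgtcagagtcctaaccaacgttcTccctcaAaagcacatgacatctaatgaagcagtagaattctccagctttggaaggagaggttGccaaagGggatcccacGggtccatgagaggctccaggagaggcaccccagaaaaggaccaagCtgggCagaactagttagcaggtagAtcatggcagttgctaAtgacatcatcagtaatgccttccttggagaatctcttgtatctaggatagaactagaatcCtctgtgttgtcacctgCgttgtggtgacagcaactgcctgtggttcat
Gm5797: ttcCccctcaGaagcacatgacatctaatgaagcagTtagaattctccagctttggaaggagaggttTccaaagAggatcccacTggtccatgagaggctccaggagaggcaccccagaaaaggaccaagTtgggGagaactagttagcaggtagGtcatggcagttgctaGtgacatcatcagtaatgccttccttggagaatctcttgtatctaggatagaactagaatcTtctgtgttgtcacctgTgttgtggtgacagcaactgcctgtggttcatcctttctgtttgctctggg
These windows matched at 269 of 281 aligned columns (95.7%), with 11 substitutions and 1 gap column.

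Gm3696, at chr14:7105454-7105753 on the minus strand, had a start region of another kind. Its window is set beside that of 2610042L04Rik, at chr14:4334513-4334812 on the plus strand, the 1 gene that RefSeq gives the synonym takusan. Capitals again mark the bases that differ or have no partner.
Gm3696: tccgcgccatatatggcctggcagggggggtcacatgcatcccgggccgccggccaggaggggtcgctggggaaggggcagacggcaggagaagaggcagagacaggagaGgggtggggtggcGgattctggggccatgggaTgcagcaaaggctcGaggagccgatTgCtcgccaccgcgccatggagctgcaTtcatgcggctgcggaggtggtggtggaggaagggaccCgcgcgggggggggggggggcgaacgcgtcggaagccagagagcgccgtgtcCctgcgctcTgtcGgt
2610042L04Rik: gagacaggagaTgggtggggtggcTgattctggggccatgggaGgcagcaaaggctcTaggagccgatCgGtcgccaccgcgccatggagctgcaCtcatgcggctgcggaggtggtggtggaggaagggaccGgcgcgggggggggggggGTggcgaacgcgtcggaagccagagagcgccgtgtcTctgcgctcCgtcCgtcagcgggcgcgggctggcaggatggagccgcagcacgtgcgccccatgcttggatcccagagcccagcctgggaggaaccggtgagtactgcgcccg
These windows matched at 190 of 203 aligned columns (93.6%), with 11 substitutions and 2 gap columns. Between the kinds no long alignment was found, the best spanning 15 columns. By start region Gm3696 stood with the annotated takusan gene, while the windows of 4930555G01Rik and Gm5797 did not match it. That mismatch does not place these genes outside the family, because a gene can have annotated starts of both kinds, as D830030K20Rik does. All 3 members are called predicted genes from here on.

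The windows also differed in base composition. G and C made up 48.7% of the 4930555G01Rik window and 48.0% of the Gm5797 window, against 70.3% in Gm3696 and 70.7% in 2610042L04Rik, and 90.9% of all windows had a lower share than Gm3696. Of 4 common promoter motifs, searched on both strands, none was in any of these 4 windows. The TATA box, TATAAA, occurred in 13.6% of all 32851 windows. The CCAAT box was found in 37.4%, the GC box, GGGCGG, in 35.7%, and the core of the cAMP response element, TGACGT, in 7.5%.

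The genes with like start regions lie together. A search of all windows found 65 genes with a start region alike to a member's, the 3 members included, at a minimum of 80% identity over 150 bases, and all 65 are on chromosome 14. Of these, 41 resembled only the kind of 4930555G01Rik and Gm5797, 23 only the kind of Gm3696 and 2610042L04Rik, and 1, D830030K20Rik, resembled both, at different annotated starts. A single run at the start of the chromosome held 57 of the 65 among its 162 annotated genes. The window of 4930555G01Rik was alike to those of 34 other genes, with a median identity of 96.4% and a highest of 100%, and that of Gm5797 to 41 others, with a median of 96.2%. The array has a probe for 9 of the 65 genes.

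**Figure D1:**
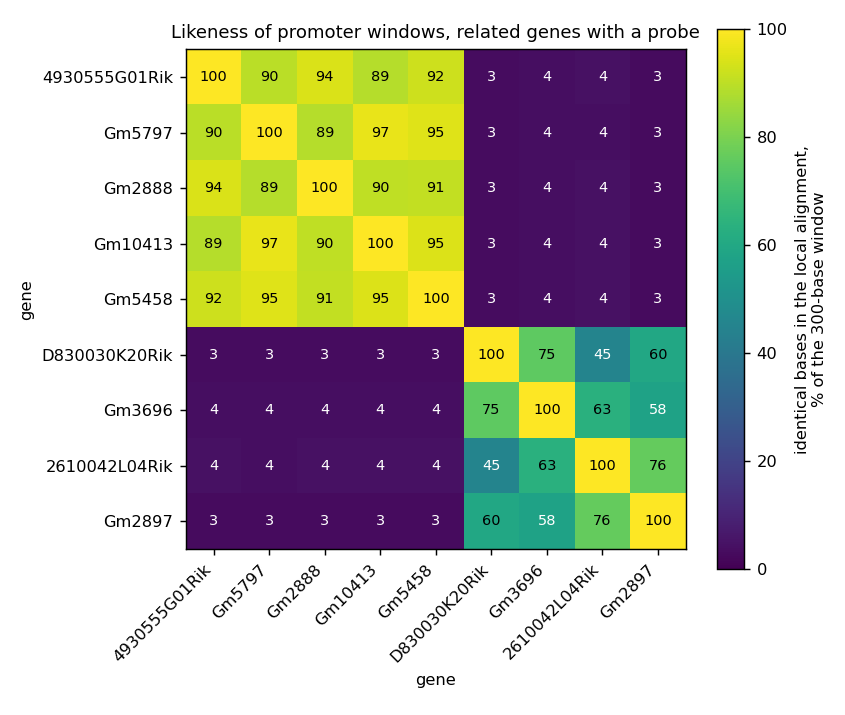
Heat map of the identical bases in the best local alignment of start regions, as % of the 300-base window, between the 9 related genes with a probe (both axes, the first listed start of each gene). 4930555G01Rik and Gm5797 fall in a block with Gm2888, Gm10413 and Gm5458, and Gm3696 falls in a block with D830030K20Rik, 2610042L04Rik and Gm2897.

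4930555G01Rik had the largest difference of the 3 genes. Its probe, ILMN_2972249, was detected on all 12 arrays. On the log2 scale the signal was 5.14, 4.42, 5.28 and 3.89 in the wig-1 ASO mice, against 6.58, 6.93, 6.84 and 6.84 in the control ASO mice and 6.98, 7.09, 6.97 and 6.96 in the PBS mice. Every wig-1 ASO array was below every other array, and the wig-1 ASO mice were also the most spread among themselves. The mean was 4.68 ± 0.65 in wig-1 ASO mice, 6.80 ± 0.15 in control ASO mice and 7.0 ± 0.06 in PBS mice (SD, n = 4 each). The log2 difference was -2.32 ± 0.25 from PBS and -2.12 ± 0.25 from control ASO (SE), which left 20.1% of the PBS signal and 23.1% of the control ASO signal. That SE assumes a spread shared by all groups, although the wig-1 ASO mice had the largest SD.

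Taken mouse by mouse, the 4930555G01Rik signal in the wig-1 ASO group was 27.7%, 16.7%, 30.4% and 11.6% of the PBS mean. In the control ASO mice it was 74.8%, 95.3%, 89.6% and 89.6%. Mouse 4 of the wig-1 ASO group was the lowest and mouse 3 the highest of that group. All 4 control ASO arrays were below all 4 PBS arrays, with a mean log2 difference of -0.20 ± 0.25 (SE) that is smaller than its error in a fit whose spread is shared with the wig-1 ASO mice. Control ASO arrays lay entirely below PBS arrays for 2.5% of the kept probes, and no probe was called lower in that comparison (0% of 17188).

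Gm5797, the gene with the matching start region, was next of the members by the measured difference from PBS, though not from control ASO. Its probe ILMN_3095356 was detected on all 12 arrays, with log2 signals of 5.42, 5.03, 5.35 and 4.90 in the wig-1 ASO mice, against 6.08, 6.71, 6.88 and 6.46 in the control ASO mice and 6.76, 6.60, 6.89 and 6.85 in the PBS mice. The wig-1 ASO arrays again lay below all others, while the control ASO and PBS arrays overlapped. Means were 5.18 ± 0.25 in wig-1 ASO mice, 6.53 ± 0.35 in control ASO mice and 6.77 ± 0.13 in PBS mice (SD, n = 4 each). The difference from PBS was -1.60 ± 0.18 and that from control ASO was -1.36 ± 0.18 (SE, log2), or 33.1% of the PBS signal and 39.0% of the control ASO signal. Between control ASO and PBS it was -0.24 ± 0.18, and control ASO mouse 1, at 62.0% of the PBS mean, was the lowest of that group, as it was for 4930555G01Rik.

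Gm5797 has a second probe, ILMN_3022981, which was detected on no array. Its log2 signals ran between 1.07 and 1.85 in wig-1 ASO mice, between 1.01 and 1.54 in control ASO mice and between 1.12 and 1.44 in PBS mice, and the groups overlapped. The fall of Gm5797 therefore rests on 1 of its 2 probes.

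Gm3696, the member with the takusan kind of start region, was close to the detection limit. Its probe ILMN_3094403 was detected on 0 of 4 wig-1 ASO arrays, 2 of 4 control ASO arrays and 3 of 4 PBS arrays, so it met the detection limit, at 5 of 12 arrays, only through the groups in which it is brighter. Control ASO mice 1 and 3 missed the limit with detection p-values of 0.0139 and 0.0118. Log2 signals were 1.33, 1.95, 1.80 and 1.33 in the wig-1 ASO mice, against 2.87, 3.14, 2.84 and 3.65 in the control ASO mice and 3.24, 3.09, 3.99 and 2.32 in the PBS mice. The wig-1 ASO arrays lay below all others, and PBS mouse 4 was the nearest to them. The means were 1.60 ± 0.32 in wig-1 ASO mice, 3.13 ± 0.38 in control ASO mice and 3.16 ± 0.68 in PBS mice (SD, n = 4 each).

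Since no wig-1 ASO array detected Gm3696, its signal there has only a bound. With each wig-1 ASO array set at its lowest detected signal, Gm3696 was 1.26-fold below the measured PBS mean and 1.23-fold below the measured control ASO mean. Those measured means include arrays that did not detect the probe, PBS mouse 4 and control ASO mice 1 and 3. The 2 ratios are therefore not strict lower bounds. The measured log2 differences were -1.56 ± 0.31 from PBS and -1.52 ± 0.31 from control ASO (SE), and control ASO minus PBS was -0.03 ± 0.31. With 16 added to each signal before the log2 the difference from PBS was -0.41. A second probe of the gene, ILMN_3022092, was detected on no array, with log2 signals between 1.18 and 2.44 in wig-1 ASO mice, between 2.12 and 2.77 in control ASO mice and between 1.52 and 2.64 in PBS mice. The groups of that probe overlapped.

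**Figure D2:**
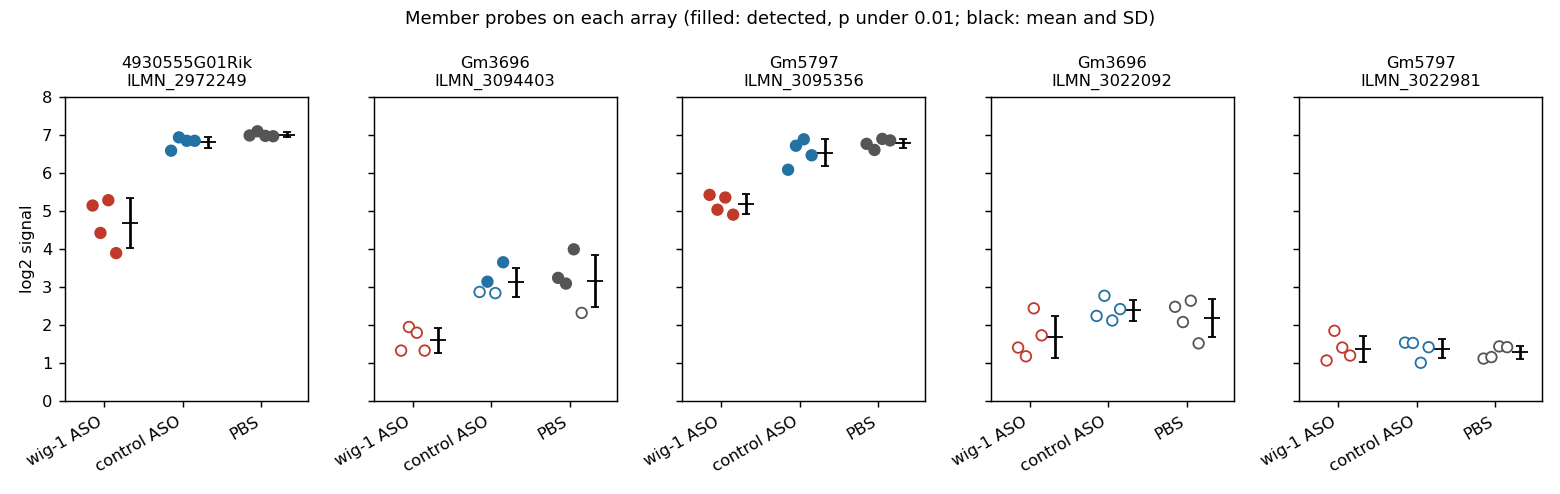
Log2 signal (vertical axis) of the 5 probes of the 3 genes on each of the 12 arrays, by group, with filled points for arrays that detected the probe and the mean and SD in black. For the 3 probes on the left every wig-1 ASO point lies below every control ASO and PBS point, and the 2 probes on the right were detected on no array.

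These differences from PBS are the values by which the genes were chosen, and nothing is read from their size. Over the whole array, wig-1 ASO arrays lay entirely below PBS arrays for 4.51% of the kept probes and entirely below control ASO arrays for 4.6%. Probes called lower at an adjusted p under 0.05 by limma were 1.06% of 17188 against PBS and 0.308% against control ASO. By gene, 0.977% of 10031 were called lower and 2.83% higher, wig-1 ASO against PBS. The comparisons with PBS and with control ASO share the wig-1 ASO arrays, so agreement between them is not independent.

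The ASO target was measured on the same arrays. Zmat3 had log2 signals of 6.89, 6.63, 6.77 and 5.95 in the wig-1 ASO mice, and averaged 6.56 ± 0.42 there, 8.45 ± 0.10 in control ASO mice and 8.49 ± 0.11 in PBS mice (SD, n = 4 each). The wig-1 ASO arrays lay below all others. The difference from PBS was -1.93 ± 0.18 (SE; adjusted p = 0.000842, limma) and that from control ASO was -1.89 ± 0.18 (adjusted p = 0.00278, limma), while control ASO minus PBS was -0.05 ± 0.18 (adjusted p = 0.969, limma). By mouse, Zmat3 was left at 32.8%, 27.4%, 30.3% and 17.2% of the PBS mean in the wig-1 ASO group. Mouse 4 of that group had the lowest Zmat3, the lowest 4930555G01Rik and the lowest Gm5797, and mouse 2 had the next lowest of each.

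The members' patterns over the 12 arrays are described by Pearson's r, which holds the difference between groups as well as that between mice. 4930555G01Rik and Gm5797 had r = 0.97, and r = 0.65 after each group's mean was taken off. Gm3696 had r = 0.84 with 4930555G01Rik and 0.82 with Gm5797, which fell to 0.11 and 0.02 within groups. No wig-1 ASO array detected Gm3696, so all its r values rest partly on undetected signals. With Zmat3, r was 0.98 for 4930555G01Rik, 0.95 for Gm5797 and 0.84 for Gm3696, and within groups 0.84, 0.44 and -0.02. 4930555G01Rik and Zmat3 were most spread in wig-1 ASO mice (SD 0.65 and 0.42). Their SDs were 0.15 and 0.10 in control ASO mice and 0.06 and 0.11 in PBS mice. The within-group r of that pair therefore rests mostly on the wig-1 ASO mice, of which mouse 4 was lowest for both.

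**Figure D3:**
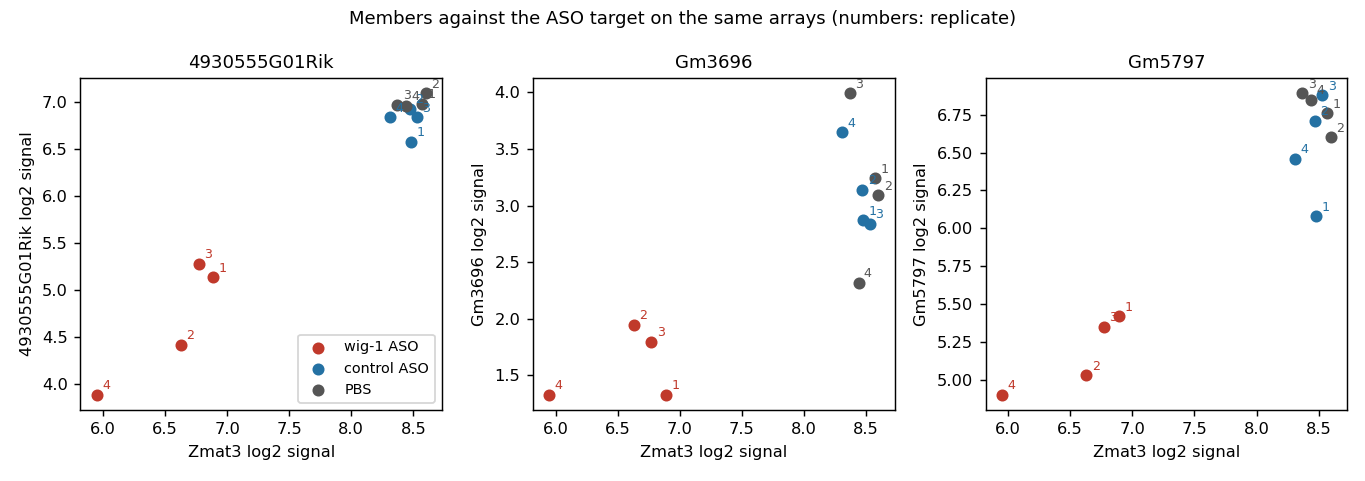
Log2 signal of each member (vertical axes) against log2 signal of Zmat3 (horizontal axes) on the 12 arrays, coloured by group and numbered by replicate. No wig-1 ASO array detected Gm3696. The wig-1 ASO arrays lie apart at the lower left, and wig-1 ASO mouse 4 has the lowest Zmat3 signal, with the lowest 4930555G01Rik and Gm5797 signals of all arrays.

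The genes nearest to each member by r, outside the genes related by start region, were named by rule. For 4930555G01Rik they were Zmat3 (0.984), Timm9, a chaperone of mitochondrial protein import (0.982), and Cntnap2, an adhesion protein of the axon from the neurexin superfamily (0.970). For Gm5797 they were Atg10, an enzyme of autophagosome formation (0.955), Zmat3 (0.951) and Susd4, a regulator of complement (0.936). Gm3696 was detected on no wig-1 ASO array, so its nearest genes were named partly from undetected signals. For Gm3696 the nearest were Ntm, the adhesion protein neurotrimin (0.951), Myo9a, an unconventional myosin (0.922), and Nrg3, a ligand of the ErbB4 receptor (0.920). Of these, Nrg3 and Cntnap2 had log2 differences from PBS of -1.62 and -1.32, and the others apart from Zmat3 lay between -0.75 and -0.51. Ranked by Spearman's correlation instead, 0, 0 and 1 of the 3 nearest genes of 4930555G01Rik, Gm5797 and Gm3696 were named again. Within groups the 9 values of r ran from 0.32, for Gm5797 with Susd4, to 0.89, for 4930555G01Rik with Timm9.

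The other genes with a like start region were, for the most part, not measured. The 6 related genes with a probe that are not members have 9 probes, and 8 of these were detected on no array, among them the probe of 2610042L04Rik. The 1 that was well measured, Gm2897 (ILMN_2654679), has a start region of the kind of Gm3696 and was detected on 11 of 12 arrays. Its log2 signals were 4.04, 3.38, 4.0 and 3.16 in wig-1 ASO mice, against 3.05, 3.82, 4.41 and 3.19 in control ASO mice and 3.31, 3.50, 3.96 and 2.49 in PBS mice. The groups overlapped, and the difference from PBS was 0.33 ± 0.36 (SE; 95% interval -0.46 to 1.12; adjusted p = 0.695, limma), against 1.06% of all kept probes called lower. From control ASO it was 0.03 ± 0.36 (95% interval -0.76 to 0.82; adjusted p = 0.988, limma).

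Gm5796 lies in the same run of chromosome 14 but has a start region alike to none of the members. Of its 2 probes, ILMN_3149058 was detected on no array. The other, ILMN_3070389, gave 8.75, 8.63, 8.95 and 8.37 in wig-1 ASO mice, against 8.76, 8.90, 9.03 and 8.58 in control ASO mice and 8.77, 9.05, 9.03 and 8.59 in PBS mice. The groups overlapped, with a difference of -0.19 ± 0.16 from PBS (SE; 95% interval -0.53 to 0.15; adjusted p = 0.59, limma). Beyond the run, 6 neighbouring genes had 9 well measured probes, with differences from PBS between -0.79 and 0.21. None was called (adjusted p between 0.153 and 0.852, limma), where 1.06% of all kept probes were called lower and 2.29% higher. At an unadjusted p under 0.05 there was 1 of the 9, against 3090 of all 17188 kept probes.

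**Figure D4:**
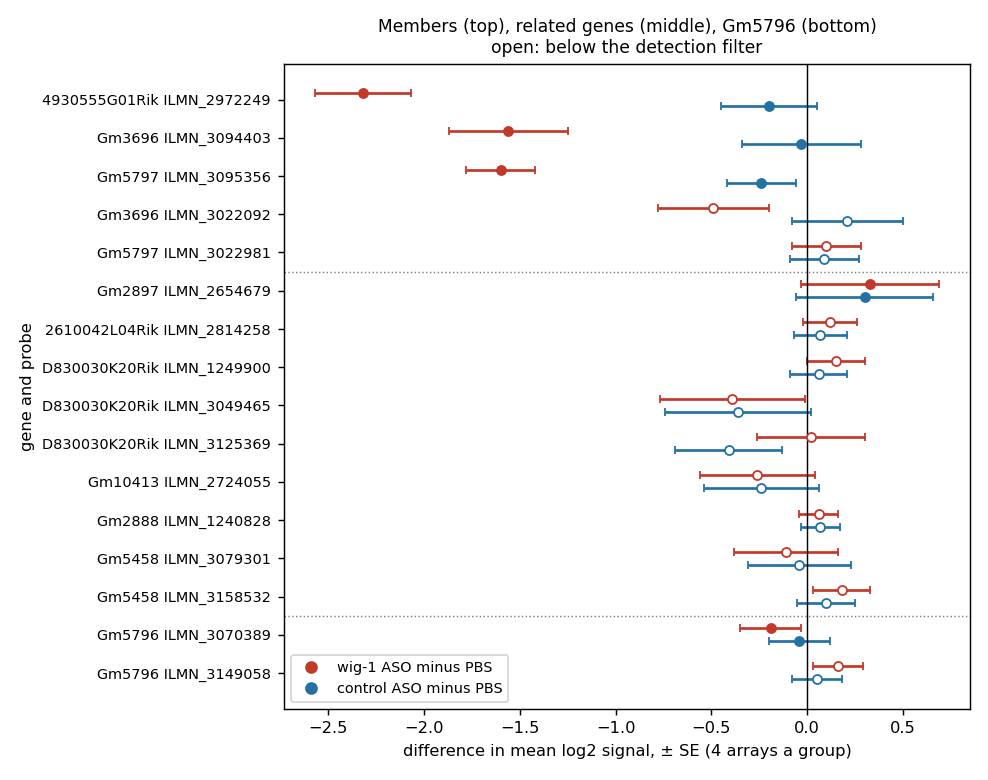
Difference in mean log2 signal (horizontal axis, ± SE, 4 arrays per group) for each probe of the members, of the 6 related genes and of Gm5796, with wig-1 ASO minus PBS in red and control ASO minus PBS in blue; open points mark probes below the detection limit. The filled red points of 4930555G01Rik and Gm5797 lie at -2.32 and -1.60, that of Gm3696, which no wig-1 ASO array detected, is drawn at its measured -1.56, and those of Gm2897 and Gm5796 lie at 0.33 and -0.19.

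The members were also set against other genes without a functional name. Of 275 well measured probes of such predicted genes other than the members, 1 was called lower and 2 were called higher, wig-1 ASO against PBS. The share called lower was 0.364%, against 1.06% of all kept probes, and the share called higher was 0.727%, against 2.29% of all kept probes. The probe called lower was of 9130020K20Rik (-0.79 ± 0.17, SE; adjusted p = 0.0328, limma) and those called higher were of Gm8909 (1.23 ± 0.26; adjusted p = 0.028) and 2810025M15Rik (0.67 ± 0.14; adjusted p = 0.0298), all named after their values were seen. The median difference of the 275 was -0.05, against -0.02 over all kept probes.

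Genes of the postsynaptic side to which takusan is tied were followed as a list of 39 PSD-95 partners, scaffolds and glutamate receptors, of which 31 were measured. Each gene was read from its brightest well measured probe. In wig-1 ASO mice against PBS mice 1 of the 31 was called lower in this way, and 0 were called higher. Over all genes 0.977% were called lower. Dimmer probes of Grip1, Lin7b and Gria1 were also called lower, and their values are given below. Differences below zero numbered 27 of the 31, against 51.9% of all genes, and 15 of the 31 were lower at an unadjusted p under 0.05, against 8.25% of all genes. The median log2 difference was -0.31 in the list and -0.01 over all genes. Against control ASO the median was -0.21, with 1 called lower (0.289% of all genes) and 7 lower at an unadjusted p under 0.05 (6.45% of all genes). In control ASO mice against PBS mice the median was -0.08 with 0 called, and at an unadjusted p under 0.05 there were 0 lower and 1 higher, Cacng2. Markers of medium spiny neurons had a median difference from PBS of -0.69 on the same arrays, with 0 of 7 called, and their part in the list's values was not tested.

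Shank3, a master scaffold of the postsynaptic density, was the gene called against PBS by its brightest probe. Its log2 signals were 7.80, 7.39, 7.36 and 7.39 in wig-1 ASO mice, against 8.0, 7.84, 7.74 and 7.71 in control ASO mice and 7.95, 8.01, 8.09 and 8.11 in PBS mice, a difference from PBS of -0.55 ± 0.12 (SE; adjusted p = 0.0292, limma). The wig-1 ASO arrays lay below the PBS arrays but overlapped the control ASO arrays. The call was lost when any PBS mouse, or wig-1 ASO mouse 2, 3 or 4, was left out (adjusted p up to 0.0943). Dimmer probes called lower against PBS were Grip1 ILMN_2491265 (-0.76 ± 0.13, SE; adjusted p = 0.0132, limma) and Lin7b ILMN_2853035 (-0.49 ± 0.1; adjusted p = 0.0291). For Gria1 they were ILMN_1248802 (-0.52 ± 0.12; adjusted p = 0.0354) and ILMN_2648012 (-0.5 ± 0.12; adjusted p = 0.0389). The other well measured probes of these genes were not called. None of these dimmer probes was called against control ASO. Over the array 1.06% of kept probes were called lower against PBS. Cacng2, the AMPA receptor partner stargazin, was the gene called against control ASO, at -0.87 ± 0.17 (SE; adjusted p = 0.0473, limma), and that call held in only 1 of 12 fits with a mouse left out (without wig-1 ASO mouse 1). Its difference from PBS was -0.47 ± 0.17 (adjusted p = 0.181, limma), and control ASO minus PBS was 0.40 ± 0.17 (adjusted p = 0.715, limma).

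Dlg5, from part of which takusan arose, averaged 7.34 ± 0.05 in wig-1 ASO mice, 7.30 ± 0.24 in control ASO mice and 7.33 ± 0.11 in PBS mice (SD, n = 4 each). Its difference from PBS was 0.01 ± 0.12 (SE; 95% interval -0.25 to 0.28; adjusted p = 0.972, limma). Dlg4, which encodes PSD-95, averaged 7.36 ± 0.28 in wig-1 ASO mice, 7.32 ± 0.38 in control ASO mice and 7.70 ± 0.10 in PBS mice. Its difference was -0.35 ± 0.19 from PBS (95% interval -0.76 to 0.07; adjusted p = 0.374, limma) and 0.04 ± 0.19 from control ASO (adjusted p = 0.957, limma).

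**Figure D5:**
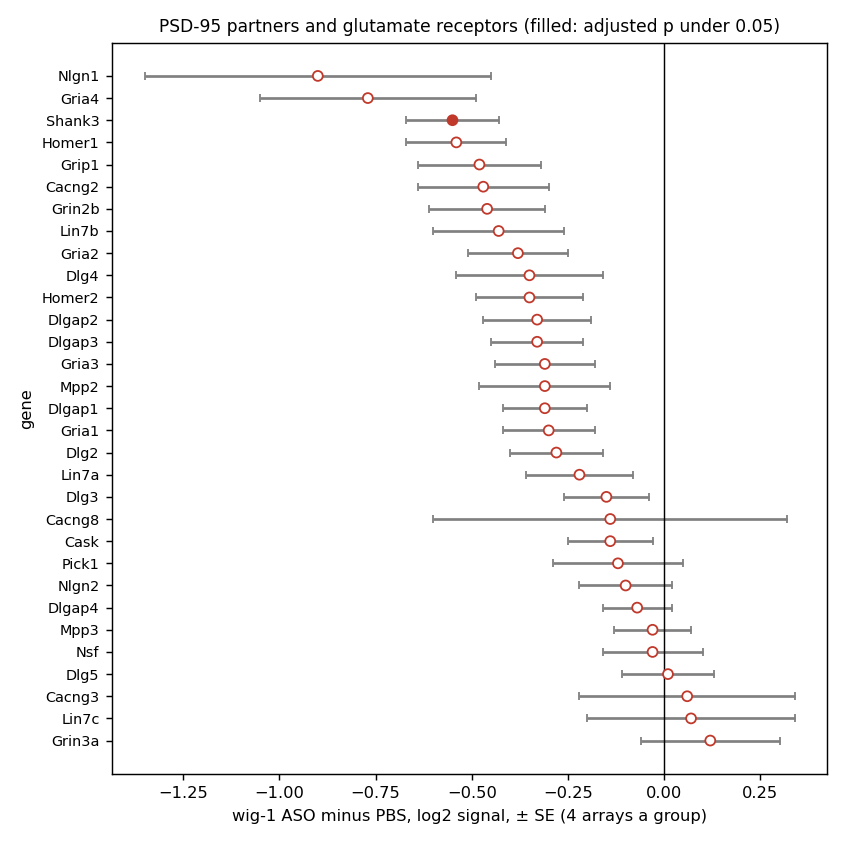
Difference in mean log2 signal, wig-1 ASO minus PBS (horizontal axis, ± SE, 4 arrays per group), for the 31 measured genes of the postsynaptic list. Each gene is shown by its brightest well measured probe, so the called dimmer probes of Grip1, Lin7b and Gria1 are not drawn. Shank3, the filled point, was past the limit of the test, and 27 of the 31 points lie left of zero.

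Markers of cell types were read on the same arrays. Of 6 measured microglia and phagocyte markers, out of 8 listed, 4 were called higher in wig-1 ASO mice than in PBS mice, where 2.83% of all genes were called higher, and their summed signal ran from 1270 to 2670 in wig-1 ASO mice, from 686 to 1240 in control ASO mice and from 655 to 757 in PBS mice. Of 7 measured markers of medium spiny neurons, the main neurons of the striatum, out of 9 listed, 0 were called either way, with a median difference of -0.69 from PBS and -0.25 from control ASO, -0.38 between control ASO and PBS, and sums from 2290 to 5040 in wig-1 ASO mice, 3200 to 4440 in control ASO mice and 4300 to 5690 in PBS mice. By mouse, the mean log2 change of the medium spiny neuron markers from the PBS mean was 0.04, -1.16, -0.91 and -0.64 in the wig-1 ASO group, and that of the microglia markers was 0.84, 1.83, 1.49 and 1.71. Pan-neuronal markers, 4 measured of 5, had a median difference of -0.14 with 0 called. Choroid plexus markers, 4 measured of 4, ranged from 115 to 12800 in wig-1 ASO mice, 3210 to 13200 in control ASO mice and 1010 to 10500 in PBS mice, with 0 called. The part of these markers in the members' values was not tested, and in such bulk samples fewer cells of a type and less RNA per cell cannot be told apart.

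The number of probes detected per array was 15228 to 17198 in wig-1 ASO mice, 15912 to 16614 in control ASO mice and 16064 to 16518 in PBS mice. The lowest was wig-1 ASO mouse 1, and the next lowest, at 15912, was control ASO mouse 2. Without wig-1 ASO mouse 1, 501 probes were called lower against PBS, against 183 with it. Each array gives 1 value per probe and mouse, so the number of mice limits the precision.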

How the data were processed

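Striatal RNA of 12 mice was hybridised to Illumina arrays. For every probe and array the authors deposited an intensity on a linear scale, together with its detection p-value, and a separate table of log2 values. They name the package lumi, whose steps are not given in the sources used here. All 12 arrays hold the same sorted intensities, as quantile normalization leaves, and the deposited log2 values equal the logarithm of these intensities to within 5.6e-09, so log2 was taken with no further step. The deposited detection p-values set the filter (under 0.01 on at least 4 arrays). Groups came from the labels, and intervals cover the spread between mice only.

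Groups were compared in 1 fit over 12 arrays (limma 3.58.1, R 4.3.3, 9 residual degrees of freedom), with Benjamini-Hochberg adjustment over 17188 probes. The methods' siggenes was not run. A gene in a list was read from its brightest kept probe. The plan defined related genes by protein likeness. No protein table was used here, so start regions were compared instead (blastn 2.17.0, at least 80% identity over 150 bases, E under 1e-10). Probe sequences were not used here. Genes were named by rule: the members, related genes with a kept probe, Zmat3, Dlg4, Dlg5, up to 6 called genes of the postsynaptic list and the 3 genes nearest to each member by Pearson's r. Grip1, Lin7b and Gria1 were named after their values were seen. The members and lists were chosen with earlier results of these data known.

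Marker lists not given in the report had these results, wig-1 ASO against PBS. Of 5 measured astrocyte markers 1 was called higher (median difference 0.33), of 2 red blood cell markers 1 was called lower (-0.82), and 0 were called among 4 oligodendrocyte (0.21), 4 thalamus and septum (0.03) and 3 endothelium markers (0.14). Alternatives tried were log2(signal + 16), the deposited log2 table (members only), cyclic loess between arrays, the replicate number as a block, no detection filter, the study's limits, a fit over the 2 groups compared, Spearman's rho, and leaving out each mouse.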

Additional observations from a re-analysis of the deposited data

How the results depend on the processing

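The well measured probes of the members kept their direction, wig-1 ASO below PBS and below control ASO, under the alternatives run for them. These were log2(signal + 16), cyclic loess, the replicate block, the deposited log2 table and leaving out each mouse. The block leaves the differences unchanged by construction. Since the members were chosen by their fall against PBS, the kept direction is a description and not a test. With log2(signal + 16) the differences shrank, to -1.76 from PBS and -1.59 from control ASO for 4930555G01Rik, -1.26 and -1.06 for Gm5797, and -0.41 and -0.38 for Gm3696, since the offset compresses low signals by construction. Leaving out 1 mouse at a time gave differences from PBS of -2.52 to -2.05 for 4930555G01Rik, -1.68 to -1.51 for Gm5797 and -1.84 to -1.28 for Gm3696, and from control ASO of -2.32 to -1.85, -1.51 to -1.24 and -1.64 to -1.35, in that order. Control ASO minus PBS ran from -0.24 to -0.13, from -0.36 to -0.09 and, for Gm3696, from -0.31 to 0.24. Calls among related genes stayed at 0, and the Zmat3 difference ran from -2.04 to -1.73 and stayed called. Calls over the array, 183 lower and 394 higher, became 311 and 602 with log2(signal + 16), 65 and 168 with the replicate block, 63 and 194 with no detection filter, 21 and 99 in the fit over the 2 groups, 107 lower under the study's limits, 167 and 442 with cyclic loess between arrays, and 34 to 501 lower and 122 to 733 higher with 1 mouse left out, highest without wig-1 ASO mouse 1 (the count of lower calls moved by over 1.5 times without any 1 of the PBS or wig-1 ASO mice). The 1 postsynaptic call became 2 with log2(signal + 16), 0 with the replicate block, no detection filter, the study's limits or the fit over the 2 groups, and 0 to 5 with 1 mouse left out, being 5 without wig-1 ASO mouse 1 and 0 without any other wig-1 ASO mouse or any PBS mouse. Predicted genes, 1 lower and 2 higher, became 3 and 5 with log2(signal + 16), 0 and 0 with the replicate block or the fit over the 2 groups, 0 higher with no detection filter, and 0 to 8 lower and 0 to 3 higher with 1 mouse left out (0 lower without PBS mouse 2, 3 or 4 or wig-1 ASO mouse 3, and 0 higher without PBS mouse 1, 2 or 3 or wig-1 ASO mouse 2 or 4). By Spearman's rho 0, 0 and 1 of the 3 nearest genes of 4930555G01Rik, Gm5797 and Gm3696 were again named. The cause of the other changes was not tested. The replicate numbers did not pair the mice (correlation of same-numbered deviations -0.14 to 0.13, and 1 of 12 arrays closest to its own number).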
